A study of Mus musculus with 27 samples.

Results

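The Notch receptors Notch1, Notch2 and Notch3, the ligands Jag1, Jag2 and Dll1, the fringe enzyme Lfng and the target genes Hes1 and Hey1 were followed across mouse hair follicle cells. These 9 genes were taken by symbol, and all 9 were found among the 51906 symbols of the RNA-seq count table and among the 32285 genes of each of 4 single-cell matrices.

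The study asked how all-trans retinoic acid (atRA), the active form of vitamin A, affects hair follicle stem cells (HFSCs). HFSC lines were derived from back skin of mice at postnatal day 55, in the resting phase of the hair cycle (telogen), established as 2D cultures on growth-arrested feeder cells and then grown in 3D in droplets of basement membrane extract. Lines came from wild-type mice and from mice termed Rxra cKO, which carried Sox9-CreER, floxed Rxra (Rxra-fl/fl) and the R26-YFP reporter and in which tamoxifen-activated Cre deletes the retinoid X receptor Rxra in cells that express Sox9. The Cre, floxed and reporter alleles were on a C57BL/6 background, and the strain of the wild-type mice used for lines is not given in the sources used here. Each genotype was represented by lines from 2 mice, and each line was grown in serum medium (FBS) and in serum-free medium with B-27 supplement, atRA and the protein kinase C inhibitor Go6976 (atRA+PKCi), giving 8 RNA-seq libraries in 4 groups of 2. In atRA+PKCi the serum was replaced and both agents were added at once. The methods also list cholesterol-cyclodextrin for this medium. They name EGF or FGF10 for the first days of 3D growth in serum medium and not for the serum-free one. The effects of these changes cannot be told apart. The genotypes were separate lines from different mice and, as described, also differed in the Cre and reporter alleles. The effects of these differences and of Rxra loss cannot be told apart either. A second set of data held single cells of wild-type back skin at postnatal day 32, in full hair growth (anagen VI), from 2 mice, sorted as CD45-CD31-CD140a-CD117- cells, and single cells of HFSC lines from the same 2 wild-type mice in 7 culture conditions marked by hashtag antibodies.

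Notch receptors are single-pass proteins that are activated when a Jagged or Delta ligand on a neighbouring cell binds them. Cleavage by ADAM proteases and the gamma-secretase complex then frees the intracellular domain, which joins Rbpj and Mastermind-like proteins in the nucleus and turns on genes of the Hes and Hey families. Fringe enzymes add sugars to the receptor and shift its response between Delta and Jagged ligands. In skin, Notch signalling is known for promoting differentiation of suprabasal epidermis and for maintaining the layers of the growing hair follicle.

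Sequences upstream of 3 members are shown because Lfng and Notch1 changed with the medium in both genotypes and, of the members, Jag1 differed most between genotypes in FBS medium. Dll1 also changed with the medium in both genotypes, but its windows lay wholly within annotated exons and are not shown. The sequences shown are the parts outside annotated exons of the 250 bases before each RefSeq start (mouse build GRCm38.p6, RefSeq), written 5′ to 3′ on the gene's strand. Lfng lies at chr5:140607091-140607319, plus strand. Notch1 lies at chr2:26503825-26504072, minus strand, which is inside the longer gene span of the GENCODE annotation (chromosome 2, 26457903 to 26516663) but in none of its exons. Jag1 lies at chr2:137116645-137116770, minus strand.
Lfng: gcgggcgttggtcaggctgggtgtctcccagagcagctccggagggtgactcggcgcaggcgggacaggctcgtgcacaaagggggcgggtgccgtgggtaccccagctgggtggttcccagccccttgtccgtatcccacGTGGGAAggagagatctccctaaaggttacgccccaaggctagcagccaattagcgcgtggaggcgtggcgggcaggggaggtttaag
Notch1: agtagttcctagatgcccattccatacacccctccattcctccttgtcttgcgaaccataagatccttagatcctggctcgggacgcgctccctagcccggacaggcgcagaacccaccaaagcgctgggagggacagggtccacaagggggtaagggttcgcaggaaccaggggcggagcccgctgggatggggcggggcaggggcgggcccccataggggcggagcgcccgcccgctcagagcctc
Jag1: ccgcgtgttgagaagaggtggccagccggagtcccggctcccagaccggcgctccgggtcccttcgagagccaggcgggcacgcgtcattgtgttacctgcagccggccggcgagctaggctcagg
The capitals mark GTGGGAA, the core letters bound by the Notch effector Rbpj, searched on both strands. A match was present in 5.42% of 32851 windows of all genes and in 1 of the 8 windows listed for members, that of Lfng, where it began 109 bases before the RefSeq start. The letters AGGTCA, the nuclear receptor half-site, were present in 14.0% of all windows and in 1 of the 8, a window of Dll1 that lay wholly within annotated exons.

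The 8 RNA-seq libraries held 25150300 to 35879800 estimated counts, and 15965 genes passed the filter on low counts. Replicates of a group correlated at r of 0.98 to 0.985 across genes. Keratinocyte genes Krt5 (8960 to 12300 CPM, counts per 1000000 scaled by TMM) and Krt14 (5720 to 22300 CPM) were high in all libraries, whereas the summed CPM of 6 fibroblast markers was 1.32 to 11.6, of 6 endothelial markers 1.89 to 5.18 and of 7 immune markers 0 to 1.86. Of the bulge stem cell markers, Cd34 was at 0.385 to 2.91 CPM and Lhx2 at 0 to 0.0962 CPM in all libraries. Krt15 was at 3.65 and 4.75 CPM in FBS libraries of wild-type cells, 4580 and 4430 in their atRA+PKCi libraries, 6.51 and 8.23 in Rxra cKO FBS, and 251 and 245 in Rxra cKO atRA+PKCi libraries. Of the 7 markers of this bulge list, 3 were lower in both atRA+PKCi libraries than in both FBS libraries of wild-type cells (Nfatc1, Fgf18 and Postn, all at most 6.42 CPM) and 3 were higher (Krt15, Sostdc1 and Lhx2). All 7 suprabasal epidermis markers, among them Krtdap, Krt10 and Lor, had less RNA in wild-type cells with atRA+PKCi than with FBS, with summed levels of 5940 and 6350 CPM in FBS and 378 and 383 CPM in atRA+PKCi. In cKO cells 5 of the 7 were lower and 2 higher in atRA+PKCi, with sums of 2910 and 3600 CPM in FBS and 1240 and 1150 CPM in atRA+PKCi. These markers moved with the same media and genotypes as the members, and their part in the member results was not tested. Rxra itself was at 149 and 122 CPM in FBS libraries of wild-type cells, 147 and 143 in their atRA+PKCi libraries, 97.2 and 95.7 in the FBS libraries labelled Rxra cKO and 148 and 145 in the atRA+PKCi libraries labelled Rxra cKO. A gene-level count takes in sequence outside the deleted exons, so it does not check the label, and cKO is used here for the libraries so labelled.

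In wild-type cells, atRA+PKCi medium was accompanied by more Notch1 and Dll1 RNA and by less Jag1, Lfng and Notch2 RNA than FBS medium. The quasi-likelihood test of edgeR, adjusted over all genes, called 2 members higher (27.2% of all tested genes were called higher) and 3 lower (26.6% of all), out of 8 tested. In cKO cells, Notch1, Notch3, Dll1 and Hes1 rose and Jag2 and Lfng fell with the same change of medium, so that 4 members were called higher (20.8% of all genes) and 2 lower (22.2% of all). Between genotypes in FBS medium, Jag1, Hes1, Lfng and Jag2 were lower in cKO cells (4 members, 20.5% of all genes) and Notch2 was higher (1 member, 22.3% of all). In atRA+PKCi medium, Notch1, Jag2, Lfng and Jag1 were lower in cKO cells (4 members, 20.2% of all genes) and Notch2 was again higher (1 member, 23.0% of all). The medium effect itself differed between genotypes for Jag1 and Hes1 (2 members lower in the interaction, 13.3% of all genes) and for Jag2 (1 member higher, 11.3% of all). In all, 5 of 8 tested members were called in the wild-type medium effect (53.9% of all genes), 6 in the cKO medium effect (43.0%), 5 between genotypes in FBS (42.8%), 5 in atRA+PKCi (43.2%) and 3 in the interaction (24.6%). The libraries of the groups did not overlap for 6, 8, 5 and 6 of the 8 members in these first 4 comparisons, against 74.5%, 75.2%, 68.4% and 76.5% of all genes. These shares of members stand against backgrounds in which a large part of all genes was called. In bulk RNA, fewer cells of a type and less RNA per cell cannot be told apart.

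**Figure D1:**
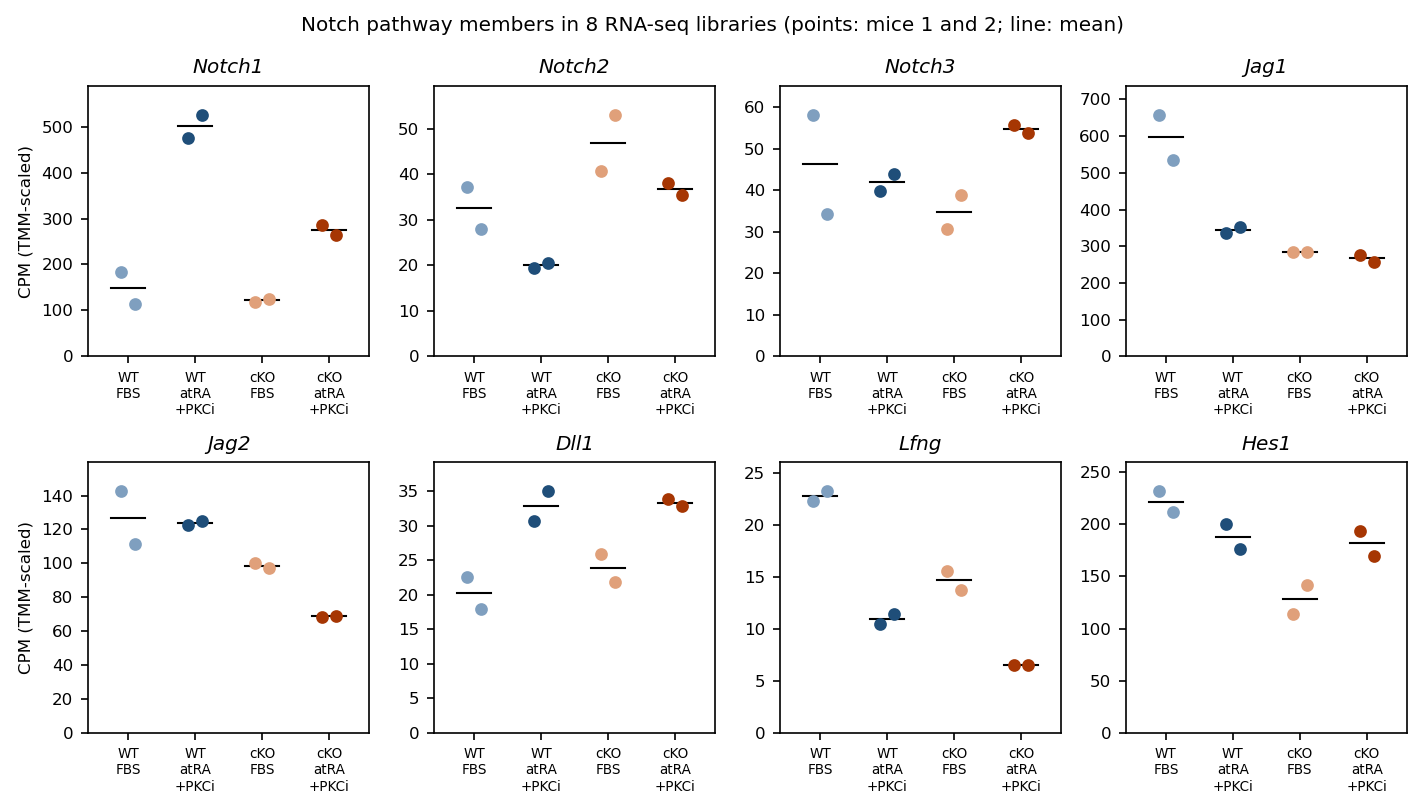
TMM-scaled CPM (vertical axis, linear from 0) of 8 members in the 4 groups of RNA-seq libraries (horizontal axis), 1 point for each mouse and a line at the mean. The Notch1 points of the atRA+PKCi groups lie above those of both FBS groups, and the Lfng points of each atRA+PKCi group lie below those of its FBS group.

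Among the 3 member receptors, Notch1 had the largest change with the medium in both genotypes. Its level was 184 and 113 CPM in FBS libraries of wild-type cells, 476 and 526 in their atRA+PKCi libraries, 118 and 125 in cKO FBS, and 287 and 264 in cKO atRA+PKCi libraries. Both atRA+PKCi groups were above both FBS groups without overlap, and the wild-type atRA+PKCi libraries were above the cKO ones. Notch1 rose with the medium by 1.76 on the log2 scale (SE 0.19, edgeR adjusted p = 7.12e-05) in wild-type cells and by 1.18 (SE 0.19, adjusted p = 0.00112 by edgeR) in cKO cells. The genotype difference was -0.86 in atRA+PKCi (SE 0.18, edgeR adjusted p = 0.00514) and -0.29 in FBS (SE 0.19, adjusted p = 0.256), and the difference between the medium effects, 0.58 (SE 0.26), missed the threshold (adjusted p = 0.147). The wild-type FBS libraries differed from each other: without replicate 1 the interaction was 0.97 (adjusted p = 0.00103) and the FBS genotype difference 0.11 (adjusted p = 0.419), and without replicate 2 that genotype difference was -0.59 (adjusted p = 0.00131). Annotated exons of Notch1 share 1068 and 414 bases with the antisense transcripts 0610009E02Rik and Gm13568, and reads of the pairs could not be separated without strand information.

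Notch2 moved the other way. Its level was 37.2 and 28.1 CPM in FBS libraries of wild-type cells, 19.5 and 20.4 in their atRA+PKCi libraries, 40.7 and 53.05 in cKO FBS, and 38.2 and 35.4 in cKO atRA+PKCi. Within each genotype the FBS libraries were higher, and within each medium the cKO libraries were higher. Annotated exons of Notch2 share 541 bases with Gm42820, which lies on the same strand. Notch2 fell with the medium in wild-type cells (log2 fold change -0.71, SE 0.16, edgeR adjusted p = 0.00452) and was higher in cKO cells in FBS (0.52, SE 0.15, edgeR adjusted p = 0.0219) and in atRA+PKCi (0.88, SE 0.15, edgeR adjusted p = 0.0018). The change in cKO cells, -0.35, had an adjusted p of 0.0912. It passed the threshold when wild-type FBS replicate 1 (adjusted p = 0.038) or 2 (adjusted p = 0.0369) was left out, or cKO FBS replicate 1 (-0.50, adjusted p = 0.038). The FBS genotype difference was not called when replicate 2 was left out of the wild-type FBS group (0.34, adjusted p = 0.101) or of the cKO FBS group (0.32, adjusted p = 0.166).

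Notch3, a receptor best known from vascular mural cells, was at 58.2 and 34.3 CPM in FBS libraries of wild-type cells, 39.96 and 43.85 in their atRA+PKCi libraries, 30.75 and 38.9 in cKO FBS, and 55.7 and 53.75 in cKO atRA+PKCi libraries. The wild-type FBS libraries spanned those of wild-type atRA+PKCi, whereas the cKO groups did not overlap. Notch3 rose with the medium in cKO cells (log2 fold change 0.65, SE 0.21, edgeR adjusted p = 0.0351) and was at -0.14 in wild-type cells (adjusted p = 0.595). Each of the 4 cKO libraries decided that call. The adjusted p was 0.17 without FBS replicate 1, 0.0563 without FBS replicate 2, 0.113 without atRA+PKCi replicate 1 and 0.105 without atRA+PKCi replicate 2. Leaving out wild-type FBS replicate 2 gave a wild-type medium effect of -0.48 (adjusted p = 0.0138), a genotype difference in FBS of -0.74 (adjusted p = 0.00217) and an interaction of -1.13 (adjusted p = 0.00177), and leaving out replicate 1 gave 0.28, 0.02 and -0.37. The genotype difference in atRA+PKCi was 0.39 (adjusted p = 0.171), and it passed the threshold when either wild-type FBS library was left out (adjusted p = 0.0161 for replicate 1 and 0.0159 for replicate 2). Annotated exons of Notch3 share 488 bases with the antisense transcript Gm17276. Notch4, the remaining receptor, had 4 to 23 counts per library.

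Of the member ligands, Jag1 had the largest genotype difference in FBS medium. It was at 658 and 536 CPM in FBS libraries of wild-type cells, 336 and 353 in their atRA+PKCi libraries, 285 and 285 in cKO FBS, and 277 and 258 in cKO atRA+PKCi libraries. The wild-type FBS libraries stood above the other 6, and the cKO groups lay close together without overlapping. Jag1 fell with the medium in wild-type cells (log2 fold change -0.79, SE 0.099, edgeR adjusted p = 0.00018) and was at -0.09 in cKO cells (SE 0.099, adjusted p = 0.501). That difference between medium effects was -0.70 (SE 0.14, edgeR adjusted p = 0.00713) and kept its call when any of the 8 libraries was left out. Against wild-type, cKO cells had less Jag1 in FBS (-1.07, SE 0.1, edgeR adjusted p = 5.96e-05) and in atRA+PKCi (-0.36, SE 0.099, edgeR adjusted p = 0.0169). The atRA+PKCi genotype call was lost without wild-type atRA+PKCi replicate 1 (adjusted p = 0.0528), wild-type atRA+PKCi replicate 2 (adjusted p = 0.0885), cKO atRA+PKCi replicate 1 (adjusted p = 0.0621) or cKO atRA+PKCi replicate 2 (adjusted p = 0.133).

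Jag2 was at 142 and 112 CPM in FBS libraries of wild-type cells, 123 and 125 in their atRA+PKCi libraries, 100.2 and 97.2 in cKO FBS, and 68.2 and 69.2 in cKO atRA+PKCi libraries. The wild-type groups overlapped, and every cKO library was below every wild-type library. Jag2 fell with the medium in cKO cells (log2 fold change -0.52, SE 0.1, edgeR adjusted p = 0.00385), with -0.04 in wild-type cells (adjusted p = 0.799). It was lower in cKO cells in atRA+PKCi (-0.85, SE 0.1, edgeR adjusted p = 0.000239) and in FBS (-0.36, SE 0.1, edgeR adjusted p = 0.0206). In the interaction Jag2 reached 0.49 (SE 0.15, edgeR adjusted p = 0.0415), a call that held when wild-type FBS replicate 1 or 2 was left out and was lost without any of the other 6. The interaction adjusted p was 0.0983 and 0.11 without wild-type atRA+PKCi replicate 1 and 2, 0.134 and 0.0877 without cKO FBS replicate 1 and 2, and 0.149 and 0.121 without cKO atRA+PKCi replicate 1 and 2. The FBS genotype call was lost without wild-type FBS replicate 1 (-0.18, adjusted p = 0.0658), cKO FBS replicate 1 (adjusted p = 0.0556) or cKO FBS replicate 2 (adjusted p = 0.103). Without wild-type FBS replicate 2 the wild-type medium effect was -0.21 (adjusted p = 0.028), and without replicate 1 it was 0.15 (adjusted p = 0.0908).

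Dll1, the only Delta ligand with more than a few counts, was at 22.5 and 17.9 CPM in FBS libraries of wild-type cells, 30.6 and 34.9 in their atRA+PKCi libraries, 25.8 and 21.9 in cKO FBS, and 33.8 and 32.9 in cKO atRA+PKCi libraries. Every atRA+PKCi library was above every FBS library. The rise was 0.70 on the log2 scale in wild-type cells (SE 0.13, edgeR adjusted p = 0.00169) and 0.48 in cKO cells (SE 0.13, edgeR adjusted p = 0.0136). The cKO call was lost without cKO FBS replicate 2 (0.37, adjusted p = 0.108), cKO atRA+PKCi replicate 1 (adjusted p = 0.0631) or cKO atRA+PKCi replicate 2 (adjusted p = 0.0578). Genotype differences of 0.24 in FBS and 0.02 in atRA+PKCi were not called, apart from the FBS one without wild-type FBS replicate 1 (0.41, adjusted p = 0.0382). Exons of Dll1 share 867 bases with the antisense lincRNA A930024N18Rik. Dll3 had 0 to 3 and Dll4 0 to 7 counts per library.

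Lfng, the lunatic fringe glycosyltransferase, was at 22.3 and 23.2 CPM in FBS libraries of wild-type cells, 10.5 and 11.4 in their atRA+PKCi libraries, 15.6 and 13.7 in cKO FBS, and 6.52 and 6.52 in cKO atRA+PKCi libraries. The 4 groups did not overlap, and both media and both genotypes were ordered alike. Lfng fell with the medium in wild-type cells (log2 fold change -1.06, SE 0.1, edgeR adjusted p = 3.53e-05) and in cKO cells (-1.17, SE 0.11, edgeR adjusted p = 4.34e-05), and the medium effects differed by 0.11 (SE 0.15, adjusted p = 0.633). It was lower in cKO cells in FBS (-0.64, SE 0.1, edgeR adjusted p = 0.00109) and in atRA+PKCi (-0.75, SE 0.11, edgeR adjusted p = 0.000578). All 4 of these calls held when any 1 library was left out. The printed Lfng sequence is the one with the Rbpj letters, which is a description of the letters only.

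Hes1, the transcriptional repressor read as a Notch target, was at 232 and 212 CPM in FBS libraries of wild-type cells, 199.9 and 177 in their atRA+PKCi libraries, 114 and 142 in cKO FBS, and 194 and 170.0 in cKO atRA+PKCi libraries. The cKO FBS libraries were below the other 6. Hes1 rose with the medium in cKO cells (log2 fold change 0.50, SE 0.12, edgeR adjusted p = 0.00847), a call lost without cKO atRA+PKCi replicate 1 (0.43, adjusted p = 0.0626). In wild-type cells the change was -0.24 (SE 0.12, adjusted p = 0.121). The medium effects differed by -0.74 (SE 0.17, edgeR adjusted p = 0.0126), and this call held when any library was left out. Hes1 was lower in cKO cells in FBS (-0.79, SE 0.12, edgeR adjusted p = 0.000846), with a genotype difference of -0.05 in atRA+PKCi (adjusted p = 0.766). Hey1, the other target among the members, did not pass the filter and had 17 and 5 counts in FBS libraries of wild-type cells, 3 and 7 in their atRA+PKCi libraries, 0 and 1 in cKO FBS, and 6 and 1 in cKO atRA+PKCi libraries.

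**Figure D2:**
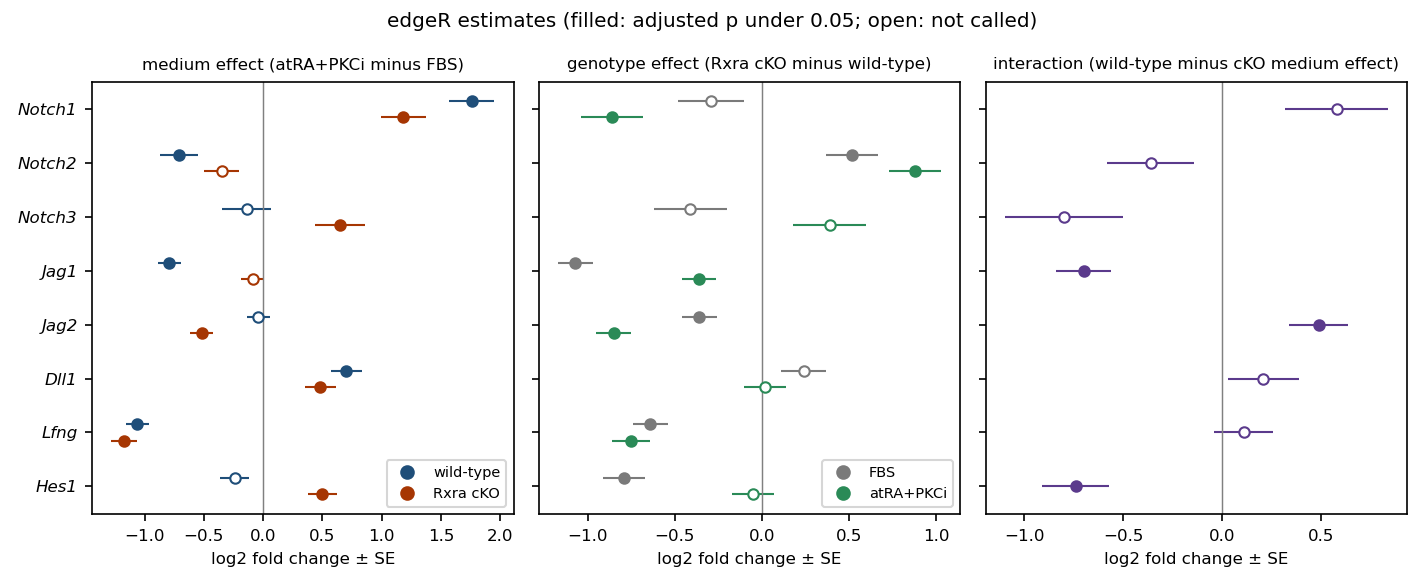
Log2 fold changes (horizontal axes) with SE bars for 8 members (vertical axis) in the medium, genotype and interaction comparisons of the RNA-seq libraries. Filled points passed an edgeR adjusted p of 0.05 and open points did not; the Jag1, Jag2 and Hes1 points of the interaction are filled.

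Per kilobase of exon, Hes1 and Jag1 were the members with the highest levels in each of the 4 groups. The length was that of all annotated exons of a gene joined, such as 14232 bases for Notch1 and 5827 for Jag1. It can exceed the length of the expressed transcripts, so the order of members is approximate. In wild-type FBS libraries Hes1 was at 109 ± 6.79 and Jag1 at 102 ± 14.8 CPM per kb (SD, n = 2), a difference within their spread. Jag2 (18.2 ± 3.13) and Notch1 (10.4 ± 3.5) followed, in CPM per kb, and Notch2 (3.03 ± 0.595) was the lowest member tested. In wild-type atRA+PKCi libraries Notch1 reached 35.2 ± 2.49 CPM per kb and stood between Jag1 (59.1 ± 2.08) and Jag2 (17.8 ± 0.255). In cKO atRA+PKCi libraries Jag2 was at 9.86 ± 0.102 and Dll1 at 7.9 ± 0.161 CPM per kb, and Lfng at 2.6 was the lowest member tested.

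The wider pathway was read from a list of 47 other genes, of which 41 were tested. With the medium, 13 rose and 12 fell in wild-type cells and 9 rose and 9 fell in cKO cells, with a median log2 change of -0.02 and -0.01 against 0.034 and 0.016 over all genes. Over all genes, 27.2% rose and 26.6% fell in wild-type and 20.8% and 22.2% in cKO cells. Between genotypes in FBS, 7 of the 41 were higher (22.3% of all genes) and 18 lower (20.5% of all) in cKO cells. In atRA+PKCi, 7 were higher (23.0% of all) and 10 lower (20.2% of all). Among enzymes that modify Notch sugars, Poglut1 rose (log2 fold change 1.00) and Pofut1 rose (0.61) while Rfng, a second fringe, fell (-1.36) in wild-type cells. Of the ligand endocytosis genes, the ubiquitin ligases Mib1 (0.28) and Mib2 (0.40) rose and Neurl1a fell (-1.46). Among noncanonical ligands Dlk1 (-1.83) and Dner (-2.17) fell, from 34 and 24 counts for Dlk1 and 13 and 7 for Dner in the FBS libraries. Of the genes grouped here as negative regulators, which is a label of the list and not a result, Dtx4 rose (1.64). Dtx2 (-1.13) and Numb (-0.37), an endocytic adaptor, fell. The nuclear partners Snw1 (0.39), Maml2 (0.58) and Maml3 (0.47) rose, and of the cleavage genes Psenen (-0.69), Aph1a (-0.47) and Furin (-0.73) fell.

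Of the further target genes, Nrarp, a feedback inhibitor of Notch, was at 185 and 169.8 CPM in FBS libraries of wild-type cells, 64.9 and 60.3 in their atRA+PKCi libraries, 103 and 123 in cKO FBS, and 91.0 and 84.0 in cKO atRA+PKCi libraries. The wild-type FBS libraries were again the highest. Nrarp fell with the medium in wild-type cells (log2 fold change -1.50, SE 0.099, edgeR adjusted p = 3.23e-06) and in cKO cells (-0.37, SE 0.097, edgeR adjusted p = 0.0152), and the effects differed by -1.14 (SE 0.14, edgeR adjusted p = 0.000573). Neither FBS library of wild-type cells had a Dtx1 count, against 38 and 32 with atRA+PKCi, at least 19.8-fold higher against a floor of 3 counts over the FBS group (edgeR adjusted p = 0.000341), and 1 and 4 against 6 and 5 counts in cKO cells. Hes5 had no count in any library, and Hey2 and Heyl had at most 5 and 3.

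In the interaction, 6 of the 41 genes were called higher (11.3% of all genes) and 7 lower (13.3% of all). The medium effect was higher in wild-type than in cKO cells for Dlk2 (2.58), Dtx4 (0.72), Rbpj (0.52), Poglut1 (0.46), Snw1 (0.33) and Dtx1 (edgeR adjusted p = 0.0145, with a group at 0 counts). It was lower for Rfng (-1.36), Nrarp (-1.14), Dtx2 (-1.11), Aph1b (-0.67), Maml3 (-0.64), Mib2 (-0.45) and Aph1a (-0.38), all on the log2 scale. These signs are of the difference and not of the change in a genotype. Maml3 and Mib2 rose in both genotypes, by 1.11 and 0.85 in cKO cells. Mean Rbpj was lower in atRA+PKCi than in FBS in both genotypes (57.6 against 69.7 CPM in wild-type and 31.3 against 54.4 CPM in cKO cells). As for Jag1, the wild-type FBS libraries were the highest for Rfng and Dtx2. Dtx2 was at 35.2 and 29.98 CPM there and between 13.2 and 19.1 CPM in the other 6 libraries.

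Over the 8 libraries, log2 CPM of Notch1 and Dll1 correlated at r = 0.827, and of Dll1 and Lfng at r = -0.849, as descriptions of 4 groups of 2. The genes with the most similar pattern were Hps4 (r = 0.993) and Fryl for Notch1, Otop3 (r = 0.9887) and Lrp10 for Notch2, Col18a1 (r = 0.9696) and Gm15483 for Notch3, Vps26b (r = 0.9906) and Mxi1 for Jag1, Card10 (r = 0.9861) and Nr1d1 for Jag2, Amotl1 (r = 0.9914) and Dcp2 for Dll1, Kcnk2 (r = 0.9974) and Slco4a1 for Lfng, and Gm15464 (r = 0.958) and Mill1 for Hes1.

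In growing skin the members were spread over different cell classes. After filtering, 14458 and 13915 cells were kept from mouse 1 and mouse 2, with median depths of 8869 and 10594 UMIs, and the libraries shared 46 barcodes. Clustering gave 31 clusters and 26 classes with at least 20 cells in each mouse, 13 of which were named from marker lists and written "-like", and the others called by their leading genes. Fibroblast-like, endothelial-like and immune-like classes were present although the sort was for cells without CD140a, CD31 and CD45. Levels are CPM of UMIs summed per class and mouse, given as mouse 1 then mouse 2, with no test. Free RNA adds UMIs to all classes, so the lowest class of each member is given beside the highest.

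**Figure D3:**
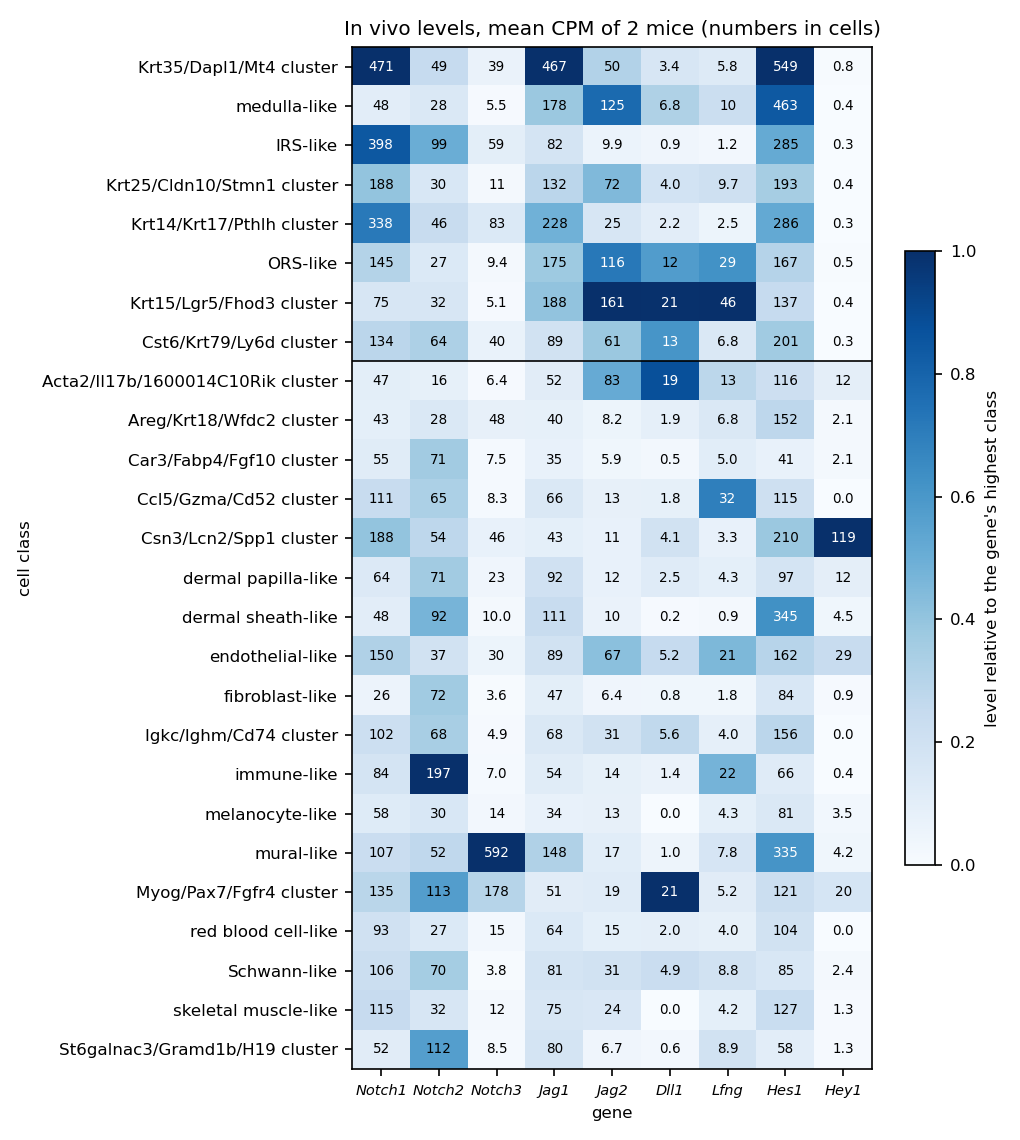
Mean CPM over 2 mice (number in each square) of the 9 members (columns) in 26 cell classes of anagen skin (rows), with the colour scaled to each gene's highest class and follicle and epidermal classes above the line. Notch1, Jag1 and Hes1 are highest in the Krt35/Dapl1/Mt4 cluster, Notch3 in mural-like cells, Notch2 in immune-like cells, and Jag2 and Lfng in the Krt15/Lgr5/Fhod3 cluster.

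Notch1 was highest in some of the differentiating follicle layers and low in another, the medulla-like cells, at 49.3 and 47.5 CPM. It reached 451 and 492 CPM in the cluster led by Krt35, Dapl1 and Mt4 (Krt35 is a hair keratin), 343 and 453 CPM in inner root sheath (IRS)-like cells and 310 and 366 CPM in the Krt14/Krt17/Pthlh cluster. These neighbours in the order overlapped between mice in the first pair and in the next, and all 3 lay above the fourth class. In outer root sheath (ORS)-like cells Notch1 was at 122 and 167 CPM. The lowest level was in fibroblast-like cells, at 24.4 and 28.6 CPM.

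Notch2 was highest in immune-like cells (175 and 220 CPM), followed by the Myog/Pax7/Fgfr4 cluster (106 and 120), whose leading genes mark myogenic cells, and by the St6galnac3/Gramd1b/H19 cluster (97.6 and 126), with overlap between the last pair. In ORS-like cells it was at 23.2 and 31.1 CPM and in the Acta2/Il17b/1600014C10Rik cluster, the lowest, at 11.9 and 20.5 CPM. Notch3 was at 639 and 546 CPM in mural-like cells, which also held the mural markers Rgs5 (1760 and 1620 CPM) and Kcnj8 (250 and 170.0 CPM). Next came the Myog/Pax7/Fgfr4 cluster at 162 and 194 CPM, and then the Krt14/Krt17/Pthlh cluster at 70.6 and 94.9 CPM. Fibroblast-like cells had 3.51 and 3.68 CPM of Notch3. These first 3 classes did not overlap between mice. Notch4, by contrast, was highest in endothelial-like cells at 33.8 and 39.8 CPM.

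Jag1 was highest where Notch1 was, at 417 and 518 CPM in the Krt35/Dapl1/Mt4 cluster. The Krt14/Krt17/Pthlh cluster (196 and 259), the Krt15/Lgr5/Fhod3 cluster (174 and 202), medulla-like cells (155 and 201) and ORS-like cells (149 and 201) followed, and each overlapped the next in CPM. Melanocyte-like cells were lowest, at 29.5 and 38.3 CPM. Jag2 was highest in the Krt15/Lgr5/Fhod3 cluster (155 and 167 CPM), above medulla-like (113 and 137) and ORS-like cells (97.6 and 135), and it was at 5.03 and 6.8 CPM in the Car3/Fabp4/Fgf10 cluster. The Krt15/Lgr5/Fhod3 cluster held the stem and ORS genes Krt15 (3010 and 1980 CPM) and Lgr5 (863 and 1080 CPM), with Cd34 at 33.7 and 30.0 CPM. Of the marker lists, that of cycling cells in S phase scored highest in this cluster (1.55), before ORS (1.39), and no cell type was assigned. ORS-like cells also had Krt15 and Lgr5 among their leading genes. In IRS-like cells, where Notch1 was high, Jag2 was near its low end, as the plot of epithelial classes shows.

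Dll1 was low throughout. Its highest levels were 23.0 and 19.5 CPM in the Myog/Pax7/Fgfr4 cluster, from 20 and 17 UMIs, and 20.5 and 21.7 CPM in the Krt15/Lgr5/Fhod3 cluster, from 56 and 95 UMIs. These overlapped. ORS-like cells had 9.23 and 15.2 CPM, and melanocyte-like and skeletal muscle-like cells had no UMI. Dll4 was highest in endothelial-like cells (50.7 and 34.6 CPM).

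Lfng shared its highest class with Jag2, at 44.0 and 49.0 CPM in the Krt15/Lgr5/Fhod3 cluster, and ORS-like cells had 27.9 and 30.2 CPM. In between stood the Ccl5/Gzma/Cd52 cluster, a class led by lymphocyte genes, at 28.4 and 36.3 CPM from 5 and 10 UMIs. IRS-like cells had 0.842 and 1.58 CPM, and dermal sheath-like cells, the lowest, 0 and 4 UMIs. Jag2 and Dll1 correlated at r = 0.74 and Jag2 and Lfng at r = 0.571 over the 26 classes, as a description of classes that share the same libraries.

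**Figure D4:**
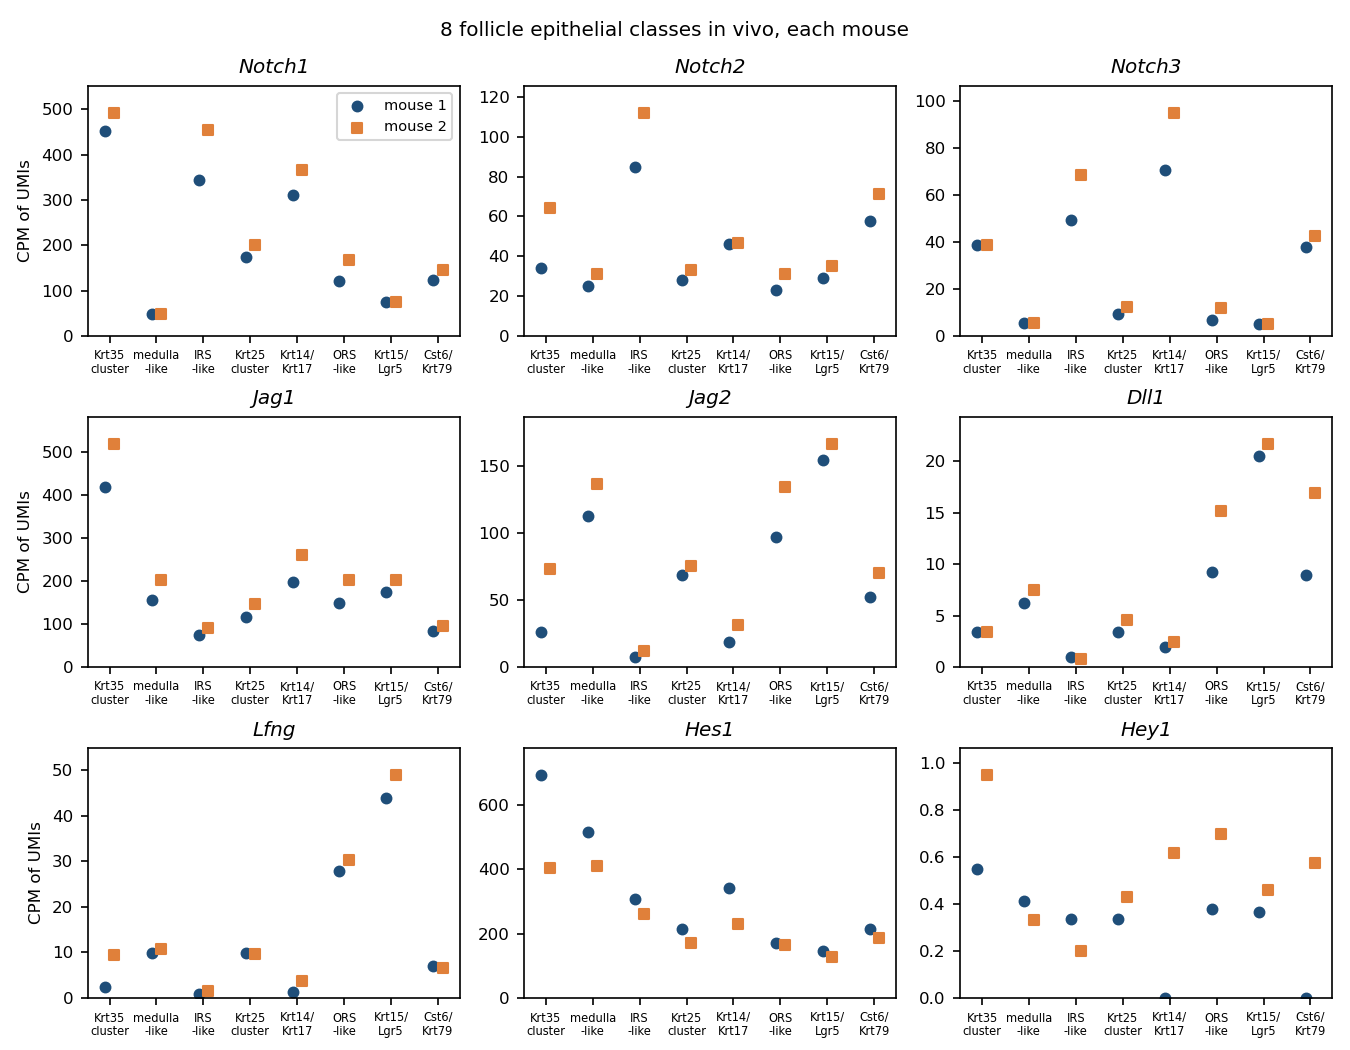
CPM of UMIs (vertical axes, linear from 0) of the 9 members in 8 follicle and epidermal classes (horizontal axes), with 1 point for each mouse. Notch1 is lowest in medulla-like and Krt15/Lgr5 cells, whereas Jag2, Dll1 and Lfng are at or near their highest in Krt15/Lgr5 cells in both mice.

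Hes1 was at 693 and 404 CPM in the Krt35/Dapl1/Mt4 cluster and at 516 and 409 CPM in medulla-like cells, and these overlapped. Dermal sheath-like (348 and 342 CPM) and mural-like cells (378 and 291 CPM) followed. The lowest class was the Car3/Fabp4/Fgf10 cluster at 44.2 and 38.1 CPM. Hes1 and Jag1 correlated at r = 0.7 over the classes, and Hes1 and Notch1 at r = 0.51. Hes1 was higher in mouse 1 in 22 of 26 classes, whereas Jag1 and Notch2 were each higher in mouse 2 in 23 of 26, and with 1 library per mouse these differences belong to libraries and mice alike.

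Hey1 was almost absent from the follicle and epidermal classes, at under 1 CPM in each of the 8 plotted and both mice. Of these, the Cst6/Krt79/Ly6d cluster scored highest for infundibulum markers (4.74) and next for suprabasal epidermis (4.03). It was highest in the Csn3/Lcn2/Spp1 cluster, whose leading gene Csn3 encodes a casein, at 113 and 125 CPM from 71 and 74 UMIs. Its lowest levels were in the Ccl5/Gzma/Cd52, Igkc/Ighm/Cd74 and red blood cell-like classes, with 0 UMIs in both mice. Endothelial-like cells had 28.2 and 29.3 CPM, the Myog/Pax7/Fgfr4 cluster 20.7 and 19.5 CPM and dermal papilla-like cells 9.2 and 13.8 CPM. Other target genes had their own classes: Heyl was highest in the Myog/Pax7/Fgfr4 cluster (134 and 162 CPM), Hey2 in dermal papilla-like cells (63.0 and 43.7 CPM) and Nrarp in IRS-like cells (98.1 and 97.9 CPM).

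Over the 13 named classes, the genes most like each member by Pearson r of log2(CPM + 1) were Gata3 (r = 0.88) and Pof1b for Notch1, Maf (r = 0.857) and Clint1 for Notch2, Ephx3 (r = 0.923) and Ano1 for Notch3, Pawr (r = 0.869) and Nckap5 for Jag1, Lama3 (r = 0.974) and Itga3 for Jag2, Itgb4 (r = 0.863) and Car12 for Dll1, Dusp6 (r = 0.88) and Nedd9 for Lfng, Bok (r = 0.869) and Mnd1 for Hes1, and Rapgef3 (r = 0.918) and Adcy4 for Hey1. The classes called by their leading genes were not used for this. Among them were the highest classes of Notch1, Jag1, Hes1, Jag2, Lfng, Dll1 and Hey1. For these members the likeness therefore leaves out the class with the most RNA.

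The cultured single cells were few. The deposited matrices held 449 and 208 barcodes for the lines of mouse 1 and mouse 2, none of them shared. The paper's figures count many more cultured cells than these matrices hold. Filters kept 262 and 94 cells, with median depths of 29322.5 and 23958.5 UMIs. Of the kept cells, 222 and 78 carried 1 hashtag. B-27 medium held 5 and 10 such cells, Rspo (R-spondin, an enhancer of Wnt signalling) 5 and 6, BMP2/4 113 and 13, Rspo+BMP2/4 92 and 27, and Rspo+BMP2/4 with a retinoic acid receptor inhibitor (RARi) 5 and 21. FBS medium had none and atRA+PKCi 2 and 1 cells, so the media of the RNA-seq comparison could not be compared here. Cd34 had no UMI in any of the sums tested, and the summed CPM of fibroblast markers was 0 to 5.29. The summed CPM of 7 suprabasal epidermis markers was 7920 and 5590 in B-27 and 637 and 562 in BMP2/4. For 5 infundibulum markers it was 2430 and 1380 in B-27 and 126 and 129 in BMP2/4. The 7 bulge markers went the other way, with 333 and 382 in B-27 and 2170 and 1750 in BMP2/4. The part of these differences in the member results was not tested.

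Notch2 was lower in BMP2/4 than in B-27 cultures. BMP2 and BMP4 are growth factors used here to direct hair differentiation, and the study describes its Rspo, BMP and RARi cultures as given atRA and PKCi too, so that the effects of BMP2/4, atRA and PKCi cannot be told apart in this comparison. Its level was 175 CPM (exact 95% Poisson interval 120 to 245) and 191 CPM (138 to 258) in B-27 and 21.9 CPM (17.4 to 27.2) and 23.5 CPM (12.1 to 41) in BMP2/4. The groups did not overlap, and neither did the counting intervals, which cover counting error only. Of the 5 members that could be tested, 1 was called lower (8.84% of 6265 genes were called lower) and 0 higher (1.53% of all). Notch2 had a log2 fold change of -2.89 (SE 0.54, edgeR adjusted p = 0.0011), and without the BMP2/4 sum of mouse 1 it was -2.90 with an adjusted p of 0.0541. Hes1, at 122 and 132 CPM in B-27 and 338 and 493 CPM in BMP2/4, gave 1.79 (SE 0.71) and missed the threshold (edgeR adjusted p = 0.12), although it passed with another hashtag rule (1.66, adjusted p = 0.0111), with cells up to 20% mitochondrial UMIs (1.93, adjusted p = 0.00494) and without the filter on low counts (1.95, adjusted p = 0.0376). Notch1 (0.95), Jag1 (-0.82) and Jag2 (0.41) had adjusted p of 0.271, 0.384 and 0.701 by edgeR.

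**Figure D5:**
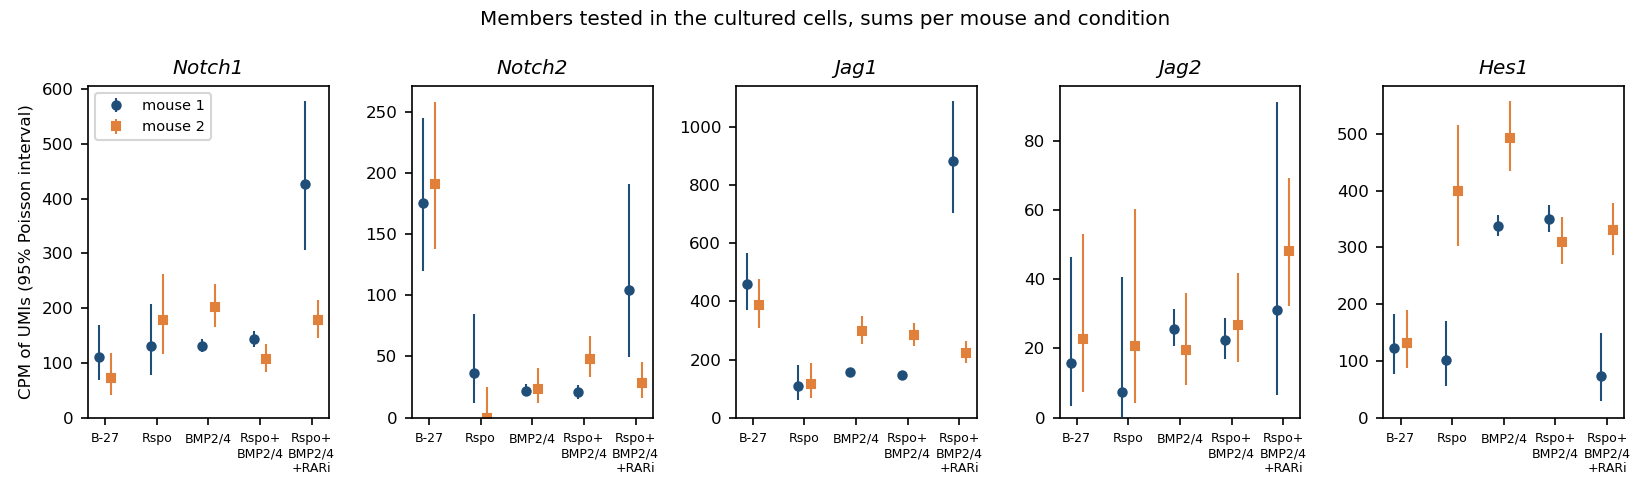
CPM of UMIs (vertical axes, linear from 0) of the 5 tested members in cultured cells, for 5 conditions (horizontal axes) and 2 mice, with exact 95% Poisson intervals. Notch2 in B-27, at 175 and 191 CPM, lies above both BMP2/4 sums. The 5-cell RARi sum of mouse 1 stands apart from mouse 2 for Notch1, Notch2, Jag1 and Hes1.

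Neither of the other contrasts gave a call for any gene. Adding Rspo to BMP2/4 left 0 of 5 members called (0% of 6265 genes, with 44 genes and 0 members at an unadjusted p under 0.05, and no gene called by DESeq2). Log2 fold changes were -0.40 for Notch1 (SE 0.47), 0.42 for Notch2 (SE 0.52), -0.14 for Jag1 (SE 0.55), -0.04 for Jag2 (SE 0.43) and -0.35 for Hes1 (SE 0.66). Adding RARi left 0 of 5 called (0% of all genes, with 232 genes and 0 members at an unadjusted p under 0.05, and no gene called by DESeq2). Jag1 was at 884 and 224 CPM with RARi and 146 and 284 CPM without it, and Hes1 at 72.8 and 330 CPM with it and 350 and 310 CPM without it. The first of each RARi pair came from 5 cells. Without the RARi sum of mouse 2, which leaves these 5 cells as the only RARi sum, Jag1 (1.53, edgeR adjusted p = 0.0394) and Hes1 (-2.75, edgeR adjusted p = 0.0373) were called, in a fit that called 212 genes higher and 518 lower of 5669 tested. Of the members not tested, Lfng had at most 7 UMIs, Notch3 at most 5 and Hey1 at most 1 in a sum, and Dll1 had 29 and 4 UMIs (7.85 and 7.83 CPM) in BMP2/4.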

How the data were processed

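Bulk RNA-seq of 8 libraries and single-cell RNA-seq of 2 skin samples and 2 pools of cultured cells, of 27 samples in the series, were used; the chromatin samples were not analysed here. The authors' deposited table holds estimated counts per gene symbol, made with Salmon 1.4.0 per the labels and brought to genes with tximport; no aligner strand setting was given in the sources used here. A second table deposited by the authors holds a normalized signal, used only with limma. The deposited matrices hold whole UMI counts per gene and cell, made with Cell Ranger 7.0.1 per the labels on mm10. No other per-sample columns were present.

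Estimated counts were rounded, filtered with filterByExpr, scaled by TMM and tested with the quasi-likelihood test of edgeR 4.0.16 (R 4.3.3) in 1 fit of 4 group means, with Benjamini-Hochberg adjustment over 15965 genes and a threshold of 0.05. The script was tested on simulated data. Skin cells with at least 500 genes, 1000 UMIs and under 10% mitochondrial UMIs were clustered with scanpy 1.11.5 (30 components, Leiden resolution 0.6) on variable genes without the Notch list. Scrublet called 834 (5.77%) and 307 (2.21%) doublets, which were left out with a cluster of 736 cells made mostly of doublets. Cultured cells were assigned by HTODemux (Seurat 5.3.0, quantile 0.99), which called 40 (15.3%) and 16 (17%) doublets, and UMIs were summed per mouse and condition where at least 5 cells remained. Sums were tested with edgeR over 6265 genes. Intervals are exact Poisson at 95%, and a count of 0 allows up to 3 counts.

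Alternatives were DESeq2 1.42.0, limma 3.58.1 with a pseudocount of 1 or 0.5, no filter, a stricter threshold, left-out libraries, other cell filters and a replicate block. The labels give the FBS and atRA+PKCi libraries of a genotype the same mouse number, and the culture pools are from numbered mice, so the numbers pair samples; deviations of same-numbered libraries correlated at r = 0.0557 (wild-type) and -0.0246 (cKO), and of culture sums at -0.263 to 0.225. Members are always named; other pathway genes are named where called by the wild-type medium effect or the interaction, up to 3 with the smallest p in each of 9 groups, and the 2 genes most like each member by Pearson r (in vivo among genes reaching 50 CPM). The members, lists and rules were chosen with earlier results of these data known. Promoter sequences are from RefSeq, GRCm38.p6, in which 7 members were matched. Results for pathway genes other than members in the cultures are not reported here.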

Additional observations from a re-analysis of the deposited data

Results flagged for a closer look

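For 3 members the change with the medium differed between wild-type and cKO cells by the interaction test. Jag1 fell in wild-type cells and had -0.09 in cKO cells, and the wild-type medium effect was lower than the cKO effect by a log2 difference of -0.70. Hes1 differed by -0.74, with a rise in cKO cells and -0.24 in wild-type cells. Jag2 differed by 0.49, and this call was lost when any of 6 of the 8 libraries was left out (adjusted p = 0.0877 to 0.149).

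Of the named pathway genes that are no members, 13 also differed. The log2 difference was positive for Dlk2 (2.58), Dtx4 (0.72), Rbpj (0.52), Poglut1 (0.46) and Snw1 (0.33). It was negative for Rfng (-1.36), Nrarp (-1.14), Dtx2 (-1.11), Aph1b (-0.67), Maml3 (-0.64), Mib2 (-0.45) and Aph1a (-0.38). For Dtx1, at 0 counts in both wild-type FBS libraries, the edgeR adjusted p of the difference was 0.0145. Over all genes 24.6% were called in this interaction. Groups of 2 samples are too small to look for single outlying samples.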

How the results depend on the processing

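The number of members called changed most with the stricter threshold (adjusted p under 0.01 and absolute log2 fold change over 1), which left 2 in the wild-type and 2 in the cKO medium effect, 1 in the FBS genotype effect, and 0 in the atRA+PKCi genotype effect and 0 in the interaction by edgeR, with 5 and 4 members at an unadjusted p under 0.05 in these last and no other tool run at that threshold. Without the filter on low counts, 8 were called in the FBS genotype effect, 6 in the interaction and 3 in BMP2/4 versus B-27. These fits also tested the members that the filter had left out. The FBS genotype count takes in Hey1, and the BMP2/4 count takes in a member with too few counts for the main test. The other hashtag rule and the limit of 20% mitochondrial UMIs gave 2 each in BMP2/4 versus B-27. Leaving out 1 library gave 5 to 7 members in the wild-type medium effect, 3 to 7 in the cKO medium effect, 3 to 7 and 4 to 6 in the genotype effects in FBS and atRA+PKCi, 2 to 4 in the interaction, 0 to 1 in BMP2/4 versus B-27, 0 in Rspo+BMP2/4 versus BMP2/4 and 0 to 2 with RARi.

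Directions turned for values that were not called. In the wild-type medium effect, Jag2 ranged from -0.21 to 0.15 and Notch3 from -0.48 to 0.28 with 1 library left out, and Jag2 was 0.11 by limma with either pseudocount. Jag1 in the cKO medium effect was 0.01 by limma with either pseudocount. With 1 library left out, the FBS genotype effect ranged from -0.59 to 0.11 for Notch1 and -0.74 to 0.02 for Notch3, the atRA+PKCi genotype effect from -0.04 to 0.12 for Dll1 and -0.14 to 0.08 for Hes1, and the interaction from -0.03 to 0.20 for Lfng. In the cultures with 1 sum left out, Rspo+BMP2/4 versus BMP2/4 ranged from -0.09 to 0.90 for Notch2, -0.57 to 0.26 for Jag1 and -0.22 to 0.35 for Jag2, which was 0.17 with the other hashtag rule and 0.22 with 20% mitochondrial UMIs; RARi ranged from -0.15 to 1.19 for Notch2. The cause was not tested. Calls also changed with other fits: without the filter on low counts, Hes1 was called in the wild-type medium effect (-0.26, edgeR adjusted p = 0.012), Notch2 in the cKO medium effect (-0.35, adjusted p = 0.00189), Notch1 (-0.30) and Notch3 (-0.43) between genotypes in FBS, Notch3 in atRA+PKCi (0.39), and Notch1 (0.56), Notch2 (-0.38) and Notch3 (-0.81) in the interaction. DESeq2 called Notch3 in the interaction (-0.83, adjusted p = 0.0161). With only the 4 libraries compared, Notch2 was called in the cKO medium effect (adjusted p = 0.0399 by edgeR) and Notch3 between genotypes in atRA+PKCi (adjusted p = 0.00188 by edgeR), and the FBS genotype call of Jag2 was lost (adjusted p = 0.0629 by edgeR). With limma, the FBS genotype call of Jag2 was lost (-0.25, adjusted p = 0.151 and 0.154) and Dll1 was called (0.39, adjusted p = 0.0273 and 0.0277). Of 576 member values under RNA-seq alternatives, 494 kept direction and side of the threshold, and of 134 in the cultures 119 did.

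With the mouse as a replicate block the members called stayed at 5 and 6 in the medium effects, 3 in the interaction, 1 in BMP2/4 versus B-27 and 0 in the other culture contrasts, and the pairing changed no member call. In the skin, 8 of 9 members kept their highest class under each alternative except resolution 1.0, where 7 did; Dll1 moved to the Krt15/Lgr5/Fhod3 cluster and Notch1, at resolution 1.0, to IRS-like cells. The filter of 1000 genes and 5% mitochondrial UMIs left too few culture sums for any test. In the main fits, too few counts left Hey1 untested in RNA-seq, and Notch3, Dll1, Lfng and Hey1 untested in the cultures, where some sums hold 5 cells.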
